A study of Mus musculus with 4 samples.

Results

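Osteogenic and normal medium were compared after 6 days of culture in MC3T3-E1 cells, a mouse preosteoblast line. The comparison took in every gene that the array names, 18193 in all, of which 11888 were measured, meaning that their signal lay above the floor defined below on at least 1 of the 2 arrays of day 6. Both groups were cells of an immortal, fibroblast-like line from the skull cap of newborn C57BL/6 mice, grown in MEM α with 10% fetal bovine serum. Normal medium held nothing more. Osteogenic medium also held ascorbic acid 2-phosphate at 150 µM and beta-glycerophosphate at 10 mM, so the effect of each supplement cannot be told apart from that of the other. The series has 4 arrays, 1 for each medium at day 3 and at day 6, and the day 3 pair is given here beside the day 6 pair. With 1 array a side there is no test, no p-value and no error from separate cultures. The labels record more alizarin red staining, a stain for calcium deposits, in osteogenic medium at day 6.

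Osteoblasts build bone by secreting a matrix rich in type I collagen and then loading it with calcium phosphate. Ascorbate is a cofactor of the enzymes that hydroxylate collagen, and beta-glycerophosphate is cleaved by alkaline phosphatase into the phosphate that mineral needs. As these cells mature they usually divide less, make proteins that bind mineral, and change the receptors, channels, secreted signals and transcription factors through which they answer hormones and their neighbours.

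A signal here is the deposited intensity after each array was scaled to a common 75th percentile, in arbitrary units, and signals of different genes cannot be set against each other because each probe set binds with its own strength. Signals are given in the order normal medium, then osteogenic medium. Values under 57.8, the floor, were set to it, so a gene at the floor in 1 medium has only a bound, written "at least". "Higher" and "lower" without a value mean a log2 difference of at least 1, or 2-fold, in osteogenic medium. A gene was represented by the brightest of its probe sets, and for genes past 2-fold the log2 differences of other measured probe sets are given where any of them differed from it by more than 0.5. They are marked as a bound where 1 of the media was at the floor, since the true difference may then be larger. Over the 4967 genes with several probe sets above the floor, the pooled SD between probe sets of a gene was 0.31 in the log2 difference, which covers probe error only. The osteogenic day 6 array stood apart in 1 control. The probe set for the 5′ end of 18S ribosomal RNA gave 739 there and between 5137 and 9193 on the rest, so that the 3′ to 5′ ratio was 0.311 there and 0.033 to 0.051 on the rest. The 3′ to 5′ ratios of Gapdh (0.756 to 0.769) and of beta-actin (1.17 to 1.25) were close on all 4 arrays, and the part of the 18S difference in the results was not tested. In whole cultures, fewer cells of a type and less RNA per cell cannot be told apart.

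At day 6, 488 of 11888 measured genes were higher in osteogenic medium (4.1%) and 330 were lower (2.78%), and the median log2 difference over all measured genes was 0.01. Of these, 99 of the higher and 53 of the lower genes were at the floor in the other medium. Receptors, channels and transporters, secreted factors, transcription factors and matrix genes were drawn from 56 families of gene symbols that overlap in part. Of 619 receptor genes on the array 314 were measured, with 28 higher (8.92%), 14 lower (4.46%) and a median of 0.07. Of 628 channel and transporter genes 293 were measured, with 31 higher (10.6%), 11 lower (3.75%) and a median of 0.14. Of 512 secreted factors 253 were measured, with 43 higher (17%), 11 lower (4.35%) and a median of 0.16. The 587 transcription factor genes had 381 measured, of which 27 were higher (7.09%) and 11 lower (2.89%). The 339 matrix genes had 229 measured, of which 29 were higher (12.7%) and 27 lower (11.8%), so this class had nearly as many genes on the lower side as on the higher. The medians of these last classes were 0.0015 and -0.0033. Among the 157 higher and 73 lower genes of all 5 classes, 30 and 6 were bounds.

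**Figure D1:**
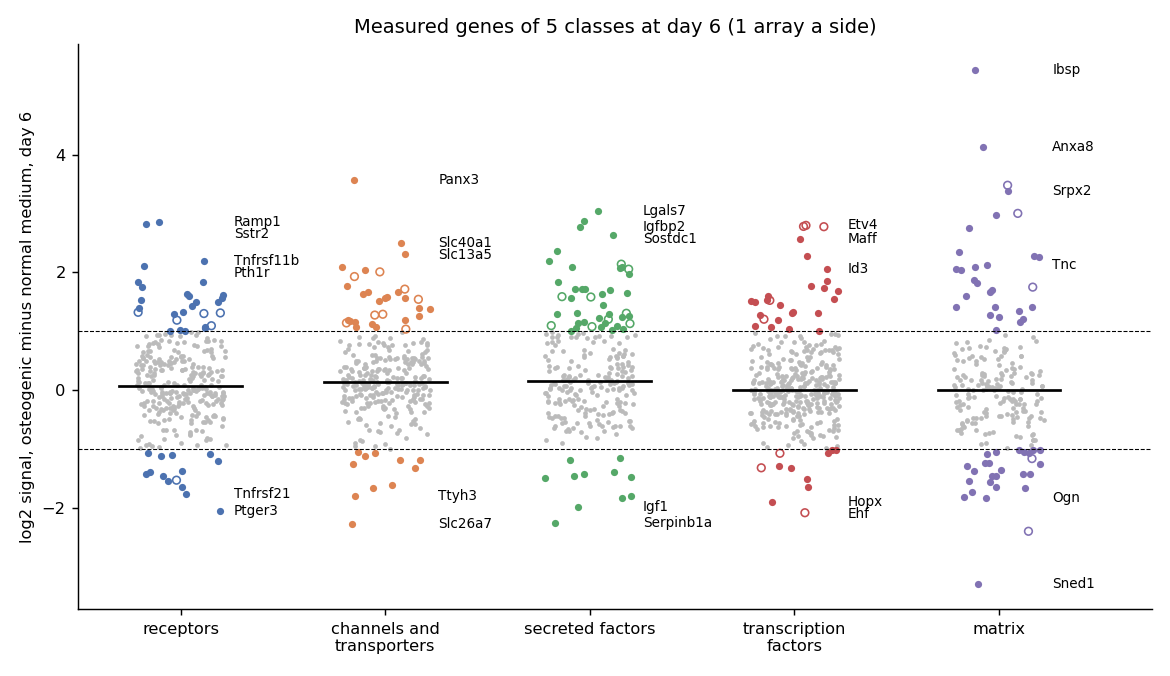
Each point is a measured gene of 1 of 5 classes, the y axis gives its log2 signal in osteogenic minus normal medium at day 6, and dashed lines mark 2-fold. Coloured points are past 2-fold, open ones are bounds with 1 medium at the floor, bars are class medians, and Ibsp at 5.44 and Sned1 at -3.28 are the ends of the range.

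Another probe set of the same gene was measured for 111 of the 230 genes of the 5 classes past 2-fold. The next brightest had the same sign for 107 of them and was itself past 2-fold for 62. For 32 of the 111 it was at the floor in 1 medium and gave only a bound. A probe set of opposite sign existed for 9. Averaged over all probe sets of a gene, 34 of the 261 genes past 2-fold that are named with values here were under 2-fold, which were Atf6, Cdc45, Clcn3, Col27a1, Dcn, E2f1, Efnb2, Ghr, Has2, Hspa5, Il15ra, Il16, Il18rap, Inhbb, Itga8, Jag1, Kif11, Ltbp3, Lyz1, Mitf, Nr4a2, Nr6a1, Nrp1, Pax9, Pdgfra, Rspo2, Scn2a, Smad7, Sulf2, Susd5, Thra, Tnfrsf1b, Tnfrsf9 and Top2a. The other 119 genes rest on a single measured probe set. By class, the next brightest had the same sign for 25 of 26 receptors, 19 of 19 channels and transporters, 18 of 20 secreted factors, 18 of 19 transcription factors and 29 of 29 matrix genes.

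**Figure D2:**
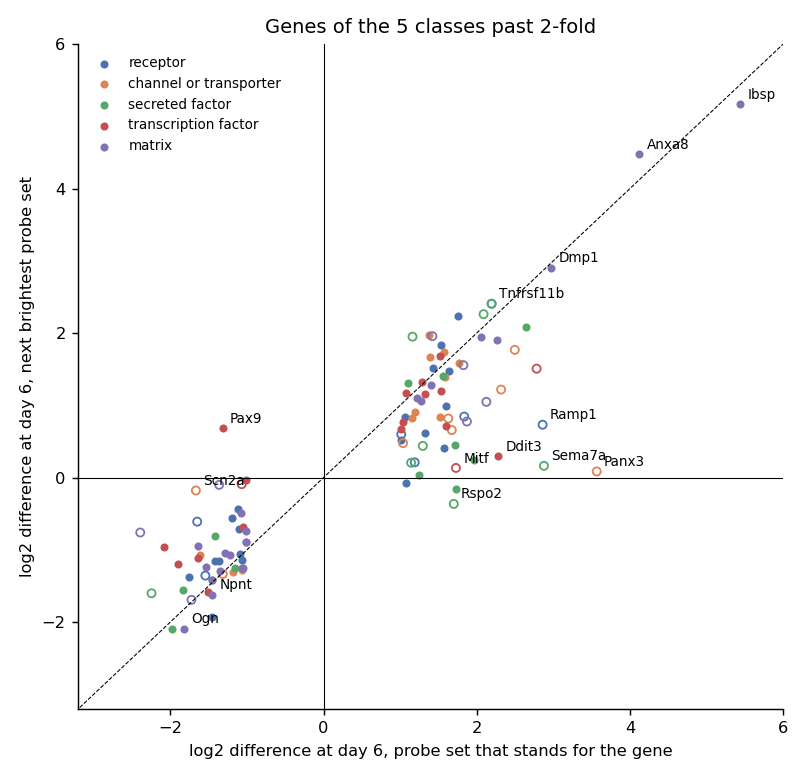
Each point is a gene of the 5 classes past 2-fold at day 6 with a second measured probe set, with the log2 difference of the probe set that stands for the gene on the x axis and that of the next brightest on the y axis. Open points are bounds, with the next brightest probe set at the floor in 1 medium. Many points lie near the dashed line of equality. Ddit3 lies well below it, as do the open points of Panx3, Sema7a, Ramp1 and Mitf, whose next brightest probe set was under the floor in normal medium and gives only a lower limit. Pax9 and Rspo2, the latter open too, are among those of opposite sign.

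The mineral-binding proteins and mineralisation enzymes had members past 2-fold on the higher side only. Of 16 measured genes, out of 19 on the array, 8 were higher and 0 lower, and the family's median was 1.25 in log2. Ibsp, bone sialoprotein, which binds mineral and cells through acidic and RGD stretches, had signals of 386 and 4468 at day 3 and 255 and 11063 at day 6, 43.4-fold higher at day 6. Both osteogenic arrays lay far above both normal arrays, and its other probe set gave 5.17. Dmp1, a matrix phosphoprotein of osteocytes, had signals of 204 and 1229 at day 3 and 739 and 5799 at day 6. It was 7.85-fold higher at day 6, where its signal in normal medium was itself above that of day 3. Phex, a membrane endopeptidase that limits mineralisation inhibitors, had a signal below the floor and one of 169.9 at day 3 and below the floor and 463 at day 6, at least 8.01-fold higher. It was under the floor on both normal arrays. Alpl, tissue-nonspecific alkaline phosphatase, had signals of 815 and 2394 at day 3 and 540.0 and 1756 at day 6 and was 3.25-fold higher at day 6, with its highest value on the osteogenic array of day 3.

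Ifitm5, a small membrane protein of mineralising osteoblasts, had a signal below the floor and one of 277 at day 3 and 69.2 and 351 at day 6, 5.07-fold higher. Gpnmb, a transmembrane glycoprotein also called osteoactivin, had signals of 127 and 298 at day 3 and 179 and 1208 at day 6, 6.73-fold higher. Smpd3, a sphingomyelinase needed for normal bone mineral, and Sgms2, a sphingomyelin synthase, act on the same membrane lipid. Smpd3 had signals of 149 and 430.3 at day 3 and 79.1 and 280.3 at day 6, 3.54-fold higher, and Sgms2 had 489.8 and 702 at day 3 and 406 and 1485 at day 6, 3.66-fold higher (other probe set at 0.78, a bound). For all 8 higher genes of the family, both osteogenic arrays were above both normal arrays. Here and below, part of this order is fixed, because the genes were chosen for their difference at day 6. The share over all measured genes was not computed. Ank, which exports pyrophosphate, an inhibitor of mineral growth, was under the threshold at 0.80 (3568 against 6209.7). Sparc and Mgp, a collagen-binding and a mineral-inhibiting matrix protein, were at 0.05 and 0.09. A dim probe set of Sparc gave 0.81 (a bound). Clec11a, a secreted lectin that promotes bone formation, was at -0.85.

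Runx proteins bind the letters TGTGGTT, and the promoters of the mineralisation genes were searched for that motif on both strands, over 250 bases before and 50 after the start site in RefSeq sequences of GRCm38.p6. It was present for 3 of the 14 measured family members with a promoter in the table (21.4%), against 6.09% of 27025 genes. Those 3 were Dmp1, Gpnmb and Sgms2, all higher at day 6, as were 8 of the 16 measured members of the family. The share describes the family and is no evidence from the arrays. The Dmp1 promoter at chr5:104202367-104202666 on the plus strand is shown because this gene was among the members with the largest differences, with the motif in capitals. A match of letters is a description and not a measured binding site.
Dmp1: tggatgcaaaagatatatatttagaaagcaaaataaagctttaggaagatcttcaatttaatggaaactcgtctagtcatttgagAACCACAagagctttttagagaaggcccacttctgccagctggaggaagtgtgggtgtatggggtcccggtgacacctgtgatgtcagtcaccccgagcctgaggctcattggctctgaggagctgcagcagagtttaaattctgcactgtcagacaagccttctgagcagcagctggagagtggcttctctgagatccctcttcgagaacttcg

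Collagen chains had 31 of 42 genes measured, 4 higher and 2 lower. Those higher were chains of minor or cartilage collagens. Col11a2, a chain of the cartilage collagen XI, had signals of 61.1 and 144 at day 3 and below the floor and 645 at day 6, at least 11.2-fold higher. Col2a1, the chain of cartilage collagen II, had signals of 903 and 1967 at day 3 and 853 and 4133 at day 6, 4.84-fold higher, and both osteogenic arrays were above both normal ones. Col18a1, a basement membrane collagen that holds endostatin, had signals of 291 and 594 at day 3 and 213 and 1022 at day 6, 4.79-fold higher. Col24a1, a fibrillar collagen of bone, was 2.03-fold higher at 98.8 against 201. On the lower side, Col8a1, a short-chain collagen, had signals of 7751 and 5753 at day 3 and 9272 and 3631 at day 6, 2.55-fold lower, and Col27a1 was 2.01-fold lower. The main fibrillar chains differed little. Col1a1 was at 0.03 (49645 against 50547), Col1a2 at 0.07 (other probe sets at -0.68 and -0.10) and Col3a1 at 0.00. These signals were near the highest of the day 6 arrays, 69469, and whether they still followed the amount of RNA at that brightness was not tested.

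The family of enzymes that process and crosslink collagen had 1 gene higher and 4 lower of 30 measured. Its lower genes include Sulf2 and Has2, which act on heparan sulfate and hyaluronan and not on collagen. P4ha2, a subunit of the prolyl 4-hydroxylase that uses ascorbate, was 2.53-fold higher with signals of 981 and 1214 at day 3 and 919 and 2328 at day 6. Loxl1, a lysyl oxidase that crosslinks elastin, had signals of 3664 and 1512 at day 3 and 4455 and 1349 at day 6, 3.30-fold lower, and its second probe set gave -1.69 (a bound). Both osteogenic arrays were below both normal arrays. Pcolce2, an enhancer of procollagen cleavage, was 3.51-fold lower with signals of 576 and 638 at day 3 and 359.5 and 102 at day 6, so its difference was seen at day 6 and not at day 3. Sulf2, which trims heparan sulfate, was 2.02-fold lower (other probe sets at -0.89 and -0.34) and Has2, a hyaluronan synthase, 2.02-fold lower.

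The small leucine-rich proteoglycans, which coat collagen fibrils and hold growth factors, divided into members that were lower and members near zero. Ogn, osteoglycin, had signals of 25498 and 12826 at day 3 and 27095 and 7645 at day 6, 3.54-fold lower. Aspn, asporin, had signals of 14438 and 10304 at day 3 and 18001 and 5793 at day 6, 3.11-fold lower (other probe set at -0.94). Dcn, decorin, had signals of 36435 and 26826 at day 3 and 34158 and 13283 at day 6, 2.57-fold lower, while its dim second probe set gave -0.10 (a bound). On all 3, the osteogenic day 6 array was the lowest and the osteogenic day 3 array the next. Bgn (0.02), Fmod (-0.15), Lum (0.07) and Omd (-0.38) were within 2-fold. Vcan, the large proteoglycan versican, was 2.65-fold higher with signals of 495 and 824 at day 3 and 375 and 993 at day 6, and the family had 1 gene higher and 3 lower of 19 measured.

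Matricellular and adhesive glycoproteins had 8 genes higher and 6 lower of 47 measured. Srpx2, a secreted sushi-repeat protein, had signals of 161 and 326 at day 3 and 117 and 1224 at day 6, 10.4-fold higher. Tnc, tenascin C, a glycoprotein of developing and healing tissue, had signals of 4211 and 6322 at day 3 and 2448 and 10675 at day 6, 4.36-fold higher (other probe set at 1.05, a bound). Tgfbi, a TGF-beta-induced adhesion protein, had signals of 858 and 1296 at day 3 and 862 and 3579.9 at day 6, 4.15-fold higher, and all 3 of its other probe sets were past 2-fold too, from 1.62 to 1.94. Lama1, a laminin chain, was 4.25-fold higher, Tnn, a tenascin found in bone, 3.01-fold, and Ccn2, a connective tissue growth factor, 2.66-fold.

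Sned1, a matrix glycoprotein with epidermal growth factor-like domains, had signals of 2343 and 505 at day 3 and 3118 and 321 at day 6, 9.73-fold lower. It was low on both osteogenic arrays. Npnt, nephronectin, an integrin ligand, had signals of 38401 and 27028 at day 3 and 32625 and 11924 at day 6, 2.74-fold lower, and 4 other probe sets gave -2.22 to -1.62. Ccn3, a growth-restraining relative of Ccn2, had signals of 4158 and 2819.7 at day 3 and 4145 and 1435 at day 6, 2.89-fold lower, so these relatives lay on opposite sides. Abi3bp was at least 5.25-fold lower with a second probe set at -0.76 (a bound), Nid2, a basement membrane protein, 2.67-fold lower and Thbs3, a thrombospondin, 2.38-fold lower. Postn, periostin, was at -0.67 and Fn1, fibronectin, at 0.10, but a second probe set of Fn1 gave 1.02.

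The latent TGF-beta binding proteins, which store TGF-beta in the matrix, did not lie on 1 side. Ltbp2 had signals of 155 and 246 at day 3 and 118 and 487 at day 6, 4.12-fold higher. Ltbp4 had signals of 1016 and 368 at day 3 and 931 and 316 at day 6, 2.95-fold lower, and Ltbp3 was 2.12-fold lower with other probe sets at -0.49 and 0.19 (a bound). Mfap5, a microfibril protein, was 2.34-fold lower. Eln, elastin, was at least 3.37-fold higher at day 6 (below the floor against 195), whereas at day 3 it was at the floor in osteogenic medium.

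Matrix proteases and their inhibitors had 4 genes higher and 8 lower of 56 measured. The higher side included inhibitors. Timp1, a metalloprotease inhibitor, had signals of 5895 and 10687 at day 3 and 6041 and 19234 at day 6, 3.18-fold higher, and Timp3 had 7559 and 7741 at day 3 and 6343 and 15335 at day 6, 2.42-fold higher. Timp2 was at -0.54, so the inhibitors lay on both sides of zero. Plaur, the urokinase receptor, was 2.36-fold higher. Pappa, a protease that cleaves IGF binding proteins, was 2.68-fold higher (other probe set at 1.96, a bound), and its relative Pappa2 had signals of 12557 and 9388 at day 3 and 10848 and 4605 at day 6, 2.36-fold lower. Htra1, a secreted serine protease, had signals of 10791 and 5672 at day 3 and 11958 and 4369 at day 6, 2.74-fold lower, and both osteogenic arrays were below both normal arrays. Adamts1, which cuts large proteoglycans, was 3.17-fold lower, Adamtsl3 2.67-fold, Mmp9, a gelatinase, 2.09-fold and Mmp16 2.06-fold. Among annexins and S100 proteins, Anxa8, which binds calcium and membranes, had signals of 274 and 508 at day 3 and 148 and 2574 at day 6, 17.4-fold higher, with a second probe set at 4.48. S100b, a calcium-binding protein, was 2.43-fold lower.

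**Figure D3:**
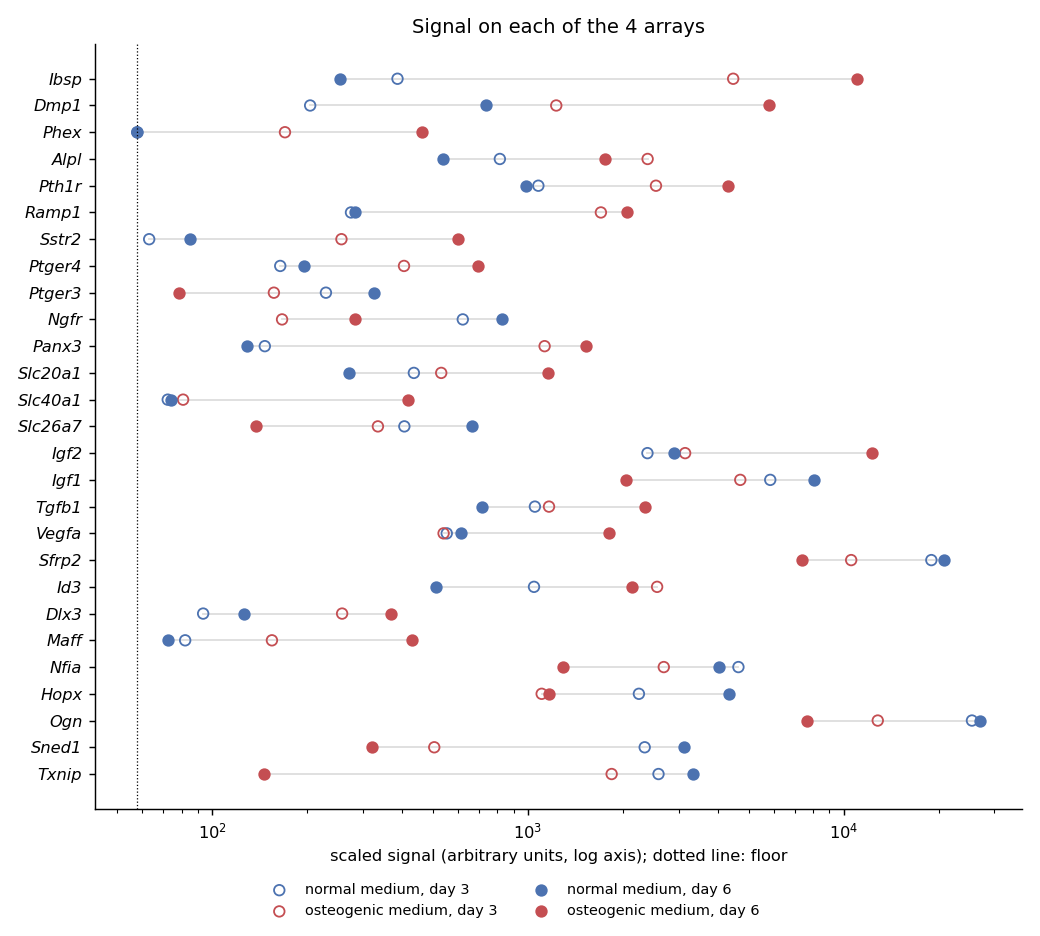
Each row is a gene and each point its scaled signal on 1 array, on a log axis with the floor as a dotted line; blue is normal and red osteogenic medium, open day 3 and filled day 6. Ibsp, Dmp1, Panx3 and Ramp1 have both red points to the right of both blue ones, Sned1 and Ogn the reverse, and Igf2, Vegfa and Txnip have the osteogenic day 6 array alone far from the other 3.

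Among receptors, the hormone and peptide receptors coupled to G proteins, with their Ramp partners, had 3 genes higher and 0 lower of 23 measured and 81 on the array. Pth1r, the receptor through which parathyroid hormone acts on osteoblasts, had signals of 1079 and 2544 at day 3 and 989 and 4291 at day 6, 4.34-fold higher. Sstr2, a somatostatin receptor, had signals of 63.1 and 257 at day 3 and 84.8 and 602 at day 6, 7.09-fold higher. Ramp1, which turns the calcitonin receptor-like receptor into a receptor for calcitonin gene-related peptide, had signals of 275 and 1702 at day 3 and 283 and 2056 at day 6, 7.26-fold higher. Each had both osteogenic arrays above both normal ones. The dimmer probe sets of Ramp1 were under the floor in normal medium at day 6 and gave 0.73 (a bound) and 1.04 (a bound). Ramp2, the partner that makes that receptor bind adrenomedullin, was under the threshold at -0.96 (952 against 488). F2r, a thrombin receptor, was at 0.86, and Npr2, the receptor of C-type natriuretic peptide that makes cyclic GMP, at -0.09.

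The prostaglandin receptors differed in direction. Ptger4, a receptor that raises cyclic AMP in response to prostaglandin E2, had signals of 164 and 405 at day 3 and 195 and 695 at day 6, 3.57-fold higher, with a second probe set at 0.84 (a bound). Ptger3, which lowers cyclic AMP in response to that ligand, had signals of 229 and 157 at day 3 and 326 and 78.6 at day 6, 4.14-fold lower. Ptgfr, the prostaglandin F receptor, had signals of 2371 and 1494 at day 3 and 2666 and 998 at day 6, 2.67-fold lower, with 4 other probe sets from -2.20 to 0.30. In all 3 the osteogenic day 6 array was the extreme one and the osteogenic day 3 array lay on the same side of the normal arrays. Other members of this family of lipid, nucleotide and amine receptors, with 3 higher and 4 lower of 24 measured, were dimmer. They were Lpar2 (at least 2.47-fold higher), Htr1b (2.45-fold higher), P2ry14 (2.63-fold lower) and Adra1b (at least 2.88-fold lower). S1pr1, a sphingosine 1-phosphate receptor, was at -0.82. Among the orphan and adhesion receptors, Adgre5 was 3.59-fold higher with signals of 181 and 399 at day 3 and 211 and 758 at day 6, and Adgrg6, an adhesion receptor that binds collagen IV, was 2.74-fold lower with signals of 1926 and 1133 at day 3 and 1805 and 659 at day 6.

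Cytokine receptors had 4 genes higher and 2 lower of 30 measured. Osmr, which pairs with gp130 to receive oncostatin M, had signals of 986 and 1072 at day 3 and 770.3 and 2394 at day 6, 3.11-fold higher, a difference of day 6 alone. Il6st, which encodes gp130, was at -0.06 and Lifr, the receptor of leukaemia inhibitory factor, at -0.52, while 1 of the other probe sets of Lifr gave 1.58. Il1rap, the shared accessory chain of interleukin 1 and 33 receptors, had signals of 303 and 510.2 at day 3 and 211 and 639 at day 6, 3.03-fold higher (other probe sets at 0.96, a bound, and 0.99), and Il1rl2, an interleukin 36 receptor, was 2.82-fold higher. Il18rap was 2.12-fold higher with a second probe set at -0.07. Ghr, the growth hormone receptor, had signals of 2971 and 1549.9 at day 3 and 3734 and 1759.5 at day 6, 2.12-fold lower, and Il15ra was 2.17-fold lower (other probe set at -0.43).

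The tumour necrosis factor receptor superfamily had 4 genes higher and 2 lower of 17 measured. Tnfrsf11b, osteoprotegerin, the secreted decoy that keeps RANKL from osteoclast precursors, had signals of 198 and 1062 at day 3 and 229.7 and 1051 at day 6, 4.57-fold higher, with a second probe set at 2.41 (a bound). Tnfrsf12a, the receptor of TWEAK, had signals of 1901 and 4144 at day 3 and 1889 and 6391 at day 6, 3.38-fold higher, with a second at 2.24. Tnfrsf1b and Tnfrsf9 were 2.01-fold and at least 2.28-fold higher, with second probe sets at 0.51 and 0.21 (a bound). Ngfr, the p75 neurotrophin receptor, had signals of 622 and 166 at day 3 and 828 and 284 at day 6, 2.91-fold lower, and Tnfrsf21, a death receptor, had 970.3 and 513 at day 3 and 1027 and 303 at day 6, 3.39-fold lower. Both lower members were low on each osteogenic array.

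Growth factor receptors mostly stayed within 2-fold. Of 28 measured receptor tyrosine kinases 1 was higher and 1 lower. Pdgfra, the alpha receptor of platelet-derived growth factor, had signals of 4183 and 2109 at day 3 and 6096 and 2370.3 at day 6, 2.57-fold lower with other probe sets at -1.15 and -0.32 and a mean over probe sets of -0.94, while Pdgfrb was at 0.13. Ntrk2, the receptor of brain-derived neurotrophic factor, was 2.62-fold higher from a signal close to the floor (58.3 against 153). Fgfr1 (-0.10), Fgfr2 (-0.33), Egfr (-0.25) and Igf1r (-0.03) were near zero or a little below it. The lowest of the other probe sets gave -0.91 for Fgfr1 and -0.75 for Igf1r. Of 13 TGF-beta and BMP receptors 0 passed 2-fold, with Tgfbr2 at -0.50 and Bmpr2 at -0.10, and of 14 Toll-like and pattern receptors and 5 Eph receptors 0 did.

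In the Wnt and hedgehog receptor family 2 genes were higher and 1 lower of 20 measured. Ptch1, the hedgehog receptor that is also a hedgehog target, had signals of 703 and 971 at day 3 and 508 and 1442 at day 6, 2.84-fold higher. Cdon, a hedgehog co-receptor, had signals of 3281 and 1938 at day 3 and 3159 and 1008 at day 6, 3.14-fold lower, with a second probe set at -0.61 (a bound). Lgr6, an R-spondin receptor, was at least 2.48-fold higher, above the floor on the osteogenic day 6 array only. Fzd1, a Wnt receptor, was just under the threshold at 0.94 with signals of 4764 and 8554 at day 3 and 5032 and 9625 at day 6, and its second probe set gave 1.11. Lrp4, a co-receptor that binds sclerostin, was 2.04-fold higher (254 against 518). Jag1, a Notch ligand, was 2.70-fold higher (476 against 1286) with other probe sets at 0.02 and 1.51 and a mean over probe sets of 0.99, while Notch1 was at -0.84. Guidance receptors had 3 higher and 1 lower of 15 measured. Unc5b, a netrin receptor, had signals of 485 and 867 at day 3 and 732 and 2114 at day 6, 2.89-fold higher, and Nrp1, a co-receptor of semaphorins and VEGF, had 1387 and 1139 at day 3 and 1159 and 2915 at day 6, 2.51-fold higher (other probe sets at 0.62 and 0.92). Plxna2, a plexin, was 2.10-fold lower (3 other probe sets from -1.71 to -1.15). Among 26 measured integrins and syndecans, Itgb8, which activates latent TGF-beta, was 3.06-fold higher with signals of 61.8 and 273 at day 3 and 154 and 471 at day 6, Itgb4 was at least 2.14-fold higher, and Itga8, a partner of nephronectin, was 2.15-fold lower. Of 28 nuclear receptors, Nr4a2 and Nr6a1 were 2.97-fold and 2.09-fold higher and Thra, a thyroid hormone receptor, 2.29-fold lower. The other probe sets of Nr4a2 ranged from 0.08 (a bound) to 1.41 and those of Thra from -0.56 to 0.11, and Nr6a1 had other probe sets at 0.11, a bound, and 0.84. The vitamin D receptor Vdr was at -0.15.

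Among channels, Panx3, a pannexin of bone and cartilage cells that passes ATP and calcium, had signals of 147 and 1129 at day 3 and 129 and 1530.3 at day 6, 11.8-fold higher. Its second measured probe set was below the floor on 3 arrays, just above it on the osteogenic day 6 array, and gave 0.08 (a bound), so the value rests on 1 probe set at both days. The main gap junction gene Gja1, connexin 43, was at -0.21, Panx1 was at 0.88, and Aqp1, a water channel, was 2.07-fold lower with signals of 3707 and 3120.5 at day 3 and 7235 and 3502 at day 6. Potassium channels had 6 genes higher and 1 lower of 30 measured and 82 on the array, and 4 of the 6 were bounds. Kcnn4, a calcium-activated channel, had signals of 439 and 629 at day 3 and 362 and 947 at day 6, 2.62-fold higher, with a second probe set at 1.67. Kcnh2, a voltage-gated channel, was at least 4.03-fold higher, and Kcnk2, a stretch-sensitive channel, at least 3.81-fold higher. Kcnf1, Kcnk6 and Kcnt2 were at least 2.92-fold, at least 2.45-fold and 2.25-fold higher. Apart from Kcnn4, all of these were dim, with signals of 141 to 333 in osteogenic medium at day 6.

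Sodium and calcium channels had 2 genes higher and 3 lower of 25 measured. Cacna1g, a T-type calcium channel, had signals of 2184 and 1799.5 at day 3 and 2459 and 1077 at day 6, 2.28-fold lower. Scn2a, a sodium channel, was 3.17-fold lower, and its second probe set, under the floor in osteogenic medium, gave -0.18 (a bound). Itpr3, which releases calcium from the endoplasmic reticulum, was 2.18-fold higher (473 against 1033), and Atp2a3, a pump that returns it, 3.19-fold higher (other probe set at 0.66, a bound). P2rx7, a channel opened by ATP, had signals of 444 and 898 at day 3 and 416 and 924 at day 6, 2.22-fold higher, and 2.02-fold higher at day 3. Ttyh3, a chloride channel of the tweety family, had signals of 1813 and 963 at day 3 and 2233 and 646 at day 6, 3.46-fold lower, and Lrrc8a, a subunit of the volume-regulated anion channel, was 2.11-fold higher. Fxyd5, a regulator of the sodium pump, had signals of 558 and 476 at day 3 and 406 and 1286 at day 6, 3.17-fold higher. Clcn3, an endosomal chloride exchanger, was 2.87-fold higher, with 4 other probe sets from 0.20 (a bound) to 0.83. Piezo1, a stretch-activated channel, was at 0.44 and Trpm7 at 0.13 (other probe sets from -0.48 to 0.30).

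Transporters of phosphate and other anions included 2 higher genes and 1 lower of 20 measured. Slc20a1, a sodium-phosphate cotransporter known to feed mineralisation, had signals of 435 and 531 at day 3 and 271 and 1159 at day 6, 4.28-fold higher. Its relative Slc20a2 was at 0.04. Slc13a5, a citrate transporter, had signals of 107 and 218 at day 3 and 98.3 and 489.8 at day 6, 4.98-fold higher (other probe set at 1.22, a bound). Slc26a7, an anion exchanger, had signals of 406 and 335 at day 3 and 663 and 137 at day 6, 4.82-fold lower, so it and Slc20a1 lay on opposite sides. At day 3 their log2 differences had been -0.28 and 0.29, both under the threshold.

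Amino acid transporters had 7 genes higher and 1 lower of 35 measured, with a median of 0.37. Slc3a2, the heavy chain shared by several amino acid exchangers, had signals of 4145 and 3885 at day 3 and 3658 and 8389.6 at day 6, 2.29-fold higher. Slc6a9, a glycine transporter, had signals of 744 and 742 at day 3 and 586 and 1740.5 at day 6, 2.97-fold higher, and Slc6a6, the taurine transporter, had 2607 and 4402 at day 3 and 2049.7 and 6146 at day 6, 3.00-fold higher. Slc3a2 and Slc6a9 had no such difference at day 3. Slc7a5, a light chain partner of Slc3a2, was at 0.50. Slc43a1 was 2.97-fold higher and its relative Slc43a2, another carrier of neutral amino acids, 3.05-fold lower (other probe set at -1.08).

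Glucose and related transporters had 4 genes higher and 1 lower of 19 measured. Slc2a1, the widespread glucose transporter, had signals of 1632 and 1577 at day 3 and 1191 and 2734 at day 6, 2.30-fold higher at day 6 and not at day 3. Slc5a3, an inositol transporter, had signals of 1094 and 1389 at day 3 and 1017 and 3464 at day 6, 3.41-fold higher (other probe sets at 0.47, a bound, and 1.59). Slc2a3 was 3.09-fold higher (other probe set at 0.82, a bound) and Slc16a9, a carboxylate carrier, 2.26-fold lower. Among metal transporters, Slc40a1, the iron exporter ferroportin, had signals of 72.3 and 80.8 at day 3 and 74.0 and 417 at day 6, 5.64-fold higher (other probe set at 1.77, a bound). Tfrc, the transferrin receptor that brings iron in, had signals of 3182 and 1609 at day 3 and 2839 and 1141 at day 6, 2.49-fold lower, with a second probe set at -1.33 (a bound). Slc39a14, which carries zinc and iron, had signals of 870.3 and 953 at day 3 and 705 and 1839 at day 6, 2.61-fold higher, and its other probe sets gave 1.53 and 1.97. Of 48 measured carriers of organic ions, nucleosides and lipids, Abca9 alone passed 2-fold, at 2.39-fold lower.

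**Figure D4:**
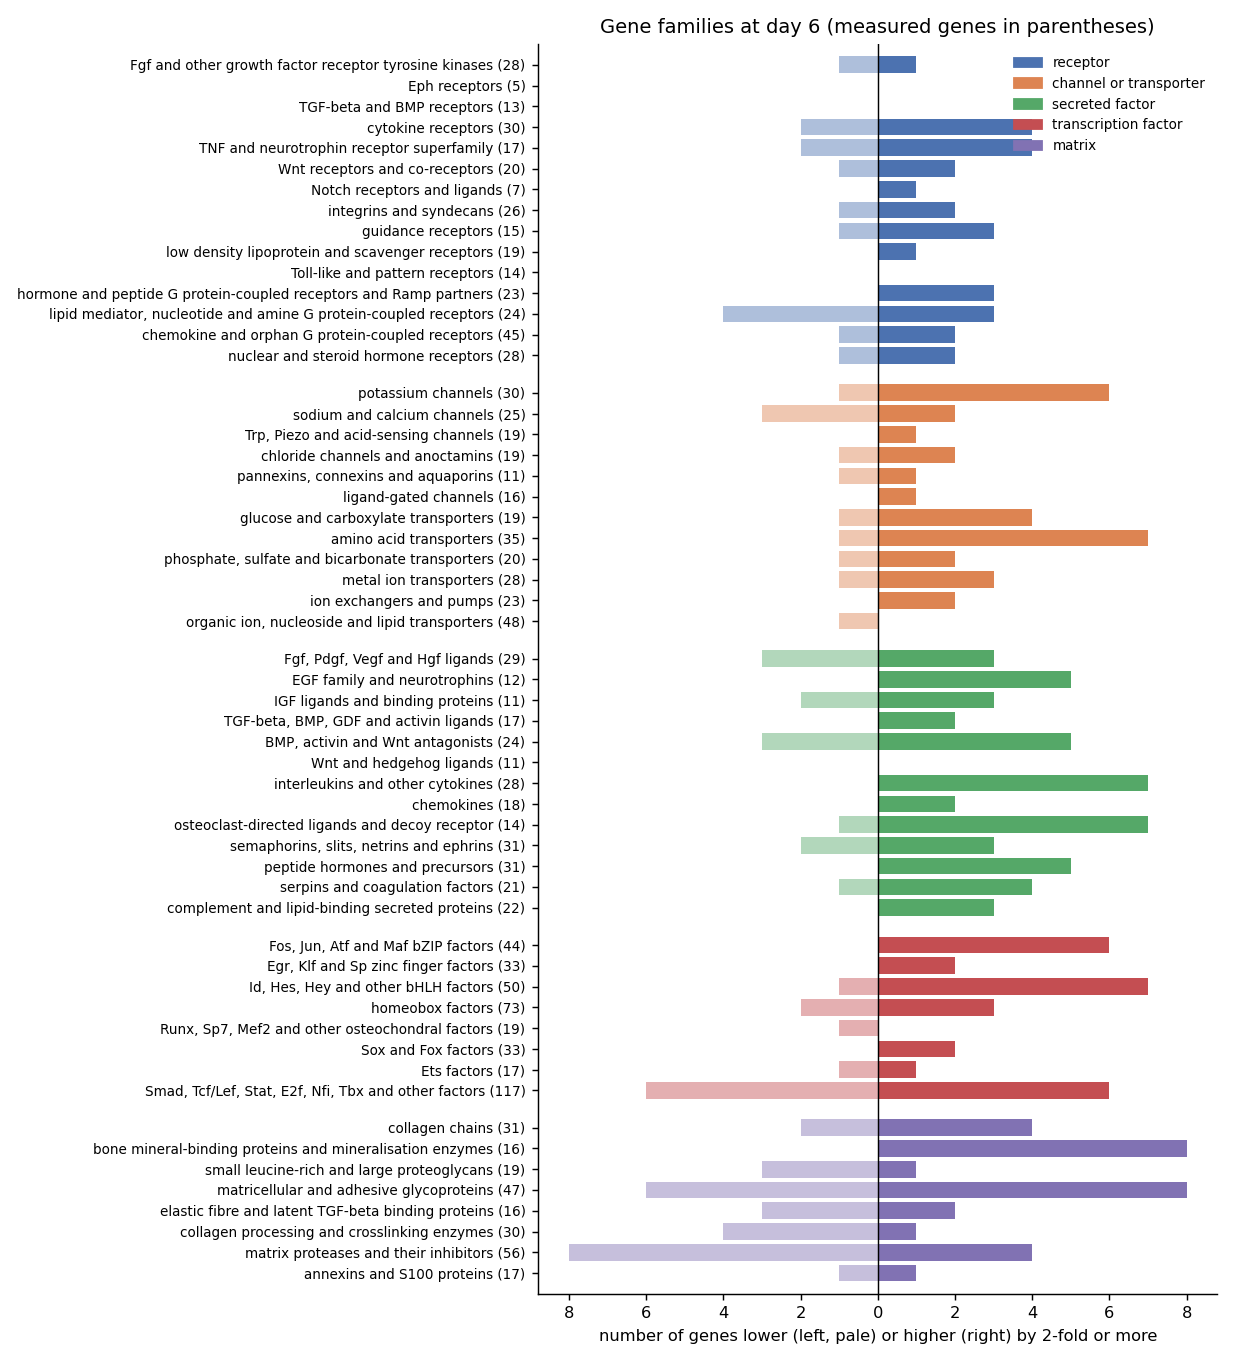
Bars give, for each of 56 gene families, how many genes were lower (left) or higher (right) by 2-fold or more in osteogenic medium at day 6, with the number measured in parentheses. Mineralisation genes have 8 higher and 0 lower, matrix proteases 4 and 8, while TGF-beta and BMP receptors, Eph receptors, Toll-like receptors and Wnt ligands have none.

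Among secreted factors, insulin-like growth factors and their binding proteins had 3 genes higher and 2 lower of 11 measured. Igf2, the fetal growth factor, had signals of 2391 and 3147 at day 3 and 2897 and 12320.2 at day 6, 4.25-fold higher, with a second probe set at 2.26 (a bound). Igf1 had signals of 5855 and 4705 at day 3 and 8034 and 2039.7 at day 6, 3.94-fold lower, with other probe sets from -2.09 to -1.51. The osteogenic day 6 array was the highest for the one and the lowest for the other, while the 3 other arrays lay closer together. Igfbp2, a binding protein, had signals of 988 and 3949 at day 3 and 1032 and 7059 at day 6, 6.84-fold higher, and Igfbp6, which prefers Igf2, had 1812 and 1848 at day 3 and 1890.4 and 3908 at day 6, 2.07-fold higher. On the lower side were Igf1 and Htra1, the serine protease that is also counted among the matrix proteases. The ligands Igf1 and Igf2 thus diverged. Igfbp5 was under the threshold at 0.91 and Igfbp4 at -0.24.

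Vascular and related growth factors had 3 genes higher and 3 lower of 29 measured. Vegfa, the main signal for vessel growth, had signals of 553 and 540.4 at day 3 and 612 and 1809 at day 6, 2.95-fold higher. Pgf, placental growth factor, was at least 4.16-fold higher (below the floor against 240.4). Vegfd, a lymphatic growth factor, had signals of 862 and 758 at day 3 and 983 and 275 at day 6, 3.57-fold lower. Members of this family thus lay on both sides. Csf1, a growth factor of macrophages and osteoclasts, had signals of 5434 and 3879 at day 3 and 3718 and 7949 at day 6, 2.14-fold higher, with other probe sets from 0.91 to 1.31. Gas6, the ligand of Axl, had signals of 10221 and 6721 at day 3 and 15734 and 5673 at day 6, 2.77-fold lower, and Fgf18, which acts in skeletal growth, had 475 and 246 at day 3 and 645 and 284 at day 6, 2.27-fold lower.

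TGF-beta family ligands had 2 genes higher of 17 measured. Tgfb1 had signals of 1052 and 1166 at day 3 and 718 and 2355 at day 6, 3.28-fold higher, whereas Tgfb2 (-0.10) and Tgfb3 (-0.47) were not. Inhbb, an activin subunit, was 3.31-fold higher with a second probe set at -0.16. Bmp4 was at 0.03. Of 11 measured Wnt and hedgehog ligands 0 passed 2-fold, while their modulators had 5 higher and 3 lower of 24 measured together with BMP and activin antagonists. Sostdc1, a secreted inhibitor of BMP and Wnt signals, had signals of 98.4 and 564 at day 3 and 157 and 984 at day 6, 6.25-fold higher, with a second probe set at 2.08. Notum, an enzyme that inactivates Wnt, had signals of 205 and 527 at day 3 and 189.7 and 517 at day 6, 2.72-fold higher, and Cthrc1, a secreted collagen triple helix repeat protein, had 996 and 2949 at day 3 and 991 and 3067 at day 6, 3.09-fold higher. Those 3 had both osteogenic arrays above both normal ones.

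Sfrp2, a secreted Wnt binder, had signals of 18959 and 10566 at day 3 and 20842 and 7402 at day 6, 2.82-fold lower, and its relative Sfrp4 was at least 3.00-fold higher (below the floor against 173). Dkk2, which binds Wnt co-receptors, had signals of 330.2 and 287 at day 3 and 631 and 181 at day 6, 3.48-fold lower. The R-spondins, which amplify Wnt signals, also differed. Rspo3 was 2.61-fold lower with signals of 509.8 and 417 at day 3 and 648 and 248 at day 6. Rspo2 was 3.25-fold higher, but a second probe set gave -0.36 (a bound).

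Epidermal growth factor relatives and genes named as neurotrophic factors had 5 genes higher and 0 lower of 12 measured. Of these, Manf is also counted in the endoplasmic reticulum folding list below. Manf, a factor secreted by cells whose endoplasmic reticulum is loaded, had signals of 4453 and 4301 at day 3 and 5898 and 14387 at day 6, 2.44-fold higher. Ereg, epiregulin, had signals of 153 and 179 at day 3 and 104 and 435 at day 6, 4.20-fold higher, and Bdnf was 2.24-fold higher with a second probe set at 1.95 (a bound). Ntf5 and Artn, a pair of neurotrophic factors, were at least 2.14-fold and at least 2.11-fold higher, both close to the floor.

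Interleukins, galectins and related cytokines had 7 genes higher and 0 lower of 28 measured. Il33, a nuclear cytokine, had a signal below the floor and one of 324 at day 3 and 97.9 and 503 at day 6, 5.14-fold higher. Lgals7 and Lgals3 encode galectins, which bind sugars on cell surfaces. Lgals7 had a signal below the floor and one of 344 at day 3 and 113 and 936 at day 6, 8.25-fold higher, and Lgals3 had 5480.0 and 6838 at day 3 and 5204 and 18554 at day 6, 3.57-fold higher. Lif, leukaemia inhibitory factor, had signals of 121 and 198 at day 3 and 138 and 434 at day 6, 3.14-fold higher, and Il6 was at least 2.31-fold higher, above the floor on the osteogenic day 6 array alone. Il34, a second ligand of the Csf1 receptor, was 2.04-fold higher (87.5 against 178). Lif, Il6 and the receptor Osmr all signal through gp130. Il16 was 2.37-fold higher with other probe sets from -0.33 (a bound) to 0.03. Of 18 chemokines, Cxcl1 was 3.91-fold higher with a second probe set at 0.25, and Ccl7 was 2.20-fold higher. Ccl2 (0.05) and Cxcl12 (-0.19) were near zero, but a second probe set of Cxcl12 gave 0.78.

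A family of ligands and decoys of the signals between osteoblasts and osteoclasts had 7 genes higher and 1 lower of 14 measured. Besides Csf1, Il33, Lif, Il6, Ccl7 and Tnfrsf11b these included Sema4d, a semaphorin, 2.41-fold higher with signals of 195 and 156 at day 3 and 146 and 352 at day 6. Efnb2, an ephrin, was 2.68-fold lower with other probe sets at -0.81 and 0.31 (a bound). Of the remaining semaphorins, Sema7a, a membrane-anchored one, was 7.34-fold higher (65.9 against 484) with a dim second probe set at 0.16 (a bound), and Sema3c, a secreted guidance cue, had signals of 4264 and 1909 at day 3 and 4596 and 2067 at day 6, 2.22-fold lower. Peptide hormones and related precursors had 5 higher and 0 lower of 31 measured. Angptl6 and Angptl4, angiopoietin-like proteins, were 4.26-fold and at least 2.47-fold higher, and C1qtnf3, an adipokine also made by cartilage, was 2.33-fold higher with signals of 156 and 802 at day 3 and 208 and 486 at day 6, larger at day 3. Among serpins and coagulation factors, Serpinb1a, a protease inhibitor, had signals of 803 and 671 at day 3 and 1065 and 225 at day 6, 4.74-fold lower (other probe set at -1.60, a bound), and Procr, the protein C receptor, was at least 3.01-fold higher. Cst6, a cystatin, was at least 4.41-fold higher.

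Transcription factors of the bZIP group had 6 genes higher and 0 lower of 44 measured, with a median of 0.44. Fosl1, a partner of Jun in AP-1, had signals of 178 and 143 at day 3 and below the floor and 397 at day 6, at least 6.87-fold higher (other probe set at 1.51, a bound). Maff, a small Maf protein, had signals of 82.1 and 155 at day 3 and 72.3 and 429.9 at day 6, 5.95-fold higher. Ddit3, CHOP, had signals of 1279 and 1109 at day 3 and 1423 and 6900.5 at day 6, 4.85-fold higher, with a dim second probe set at 0.29. Atf3, induced by many stresses, had signals of 213 and 211 at day 3 and 142 and 512 at day 6, 3.60-fold higher, and Cebpb, a C/EBP factor, had 6252 and 6956 at day 3 and 5354 and 13038 at day 6, 2.44-fold higher. For Ddit3, Atf3 and Cebpb the osteogenic day 6 array alone was high. Atf4 itself, a driver of amino acid and stress genes, was at 0.92 (5797 against 10998) with a second probe set at 1.49. Xbp1 was at 0.82 with other probe sets from -0.04 to 1.04.

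The helix-loop-helix factors had 7 genes higher and 1 lower of 50 measured. Id1, Id2 and Id3, which block other helix-loop-helix factors and are direct targets of BMP signals, were all higher. Id3 had signals of 1045 and 2565 at day 3 and 510.5 and 2136 at day 6, 4.18-fold higher. Id1 had signals of 184 and 403 at day 3 and 187 and 546 at day 6, 2.92-fold higher, and Id2 had 361 and 662 at day 3 and 290.3 and 831 at day 6, 2.86-fold higher. All 3 had both osteogenic arrays above both normal arrays, while Id4 was at -0.78. Hes1, a repressor that Notch signals induce, had signals of 194 and 489 at day 3 and 309 and 878 at day 6, 2.84-fold higher. Bhlhe40, a repressor linked to the clock and to hypoxia, was 3.41-fold higher, Ebf1 2.50-fold higher, and Mitf 3.31-fold higher with a second probe set at 0.13 (a bound).

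Homeobox factors had 3 genes higher and 2 lower of 73 measured. Dlx3, a factor of osteoblast maturation, had signals of 93.6 and 258 at day 3 and 126 and 367 at day 6, 2.90-fold higher, whereas Dlx5 was at -0.06. Meox1, a mesoderm factor, had signals of 79.7 and 122 at day 3 and below the floor and 396 at day 6, at least 6.85-fold higher. Hopx, a homeodomain protein that does not bind DNA, had signals of 2246 and 1105 at day 3 and 4349 and 1167 at day 6, 3.73-fold lower, and its second probe set gave -1.20. Pax9 was at least 2.49-fold lower with a second probe set at 0.68. Among Ets factors, Etv4, induced by growth factor signals, had a signal below the floor and one of 154 at day 3 and below the floor and 402 at day 6, at least 6.96-fold higher, and Ehf, an epithelial factor, had 209 and 125 at day 3 and 244 and below the floor at day 6, at least 4.22-fold lower (other probe sets at -1.36, a bound, and -0.96).

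Osteochondral factors differed less. Of 19 measured, with a median of -0.08, 0 were higher and 1 was lower. That gene was Osr1, a factor of early limb and joint mesenchyme, 2.02-fold lower with signals of 1235 and 1013 at day 3 and 1565 and 773 at day 6. Sp7, osterix, which osteoblast formation requires, was at 0.38 with signals of 574 and 924 at day 3 and 640.0 and 831 at day 6, and Sox9, the chondrocyte factor, at 0.22. Klf4 had signals of 4079.8 and 5586 at day 3 and 4222 and 8902 at day 6, 2.11-fold higher, and Egr1, an immediate-early factor, was at 0.04. Tgif1, a repressor in TGF-beta signalling, was 2.13-fold higher (1435 against 3055), Foxs1 2.50-fold higher and Sox8 2.48-fold higher.

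The remaining factors, a family of 117 measured genes that takes in Smad, Tcf, Stat, Gata, Tbx, Nfi and E2f proteins, had 6 higher and 6 lower. Lef1, which carries Wnt signals to genes, had signals of 249 and 397 at day 3 and 232 and 701 at day 6, 3.02-fold higher (other probe set at 0.72). Skil and Smad7, inhibitors that TGF-beta itself induces, were 2.74-fold and 2.05-fold higher with signals of 629 against 1722 and 369.9 against 759 at day 6. Gata3 was 3.23-fold higher. Nfia had signals of 4642 and 2693 at day 3 and 4033 and 1291 at day 6, 3.12-fold lower, and its other 5 probe sets gave -2.07 to -1.11. Its relative Nfix was at -0.99, just under the threshold. Tbx3, a T-box repressor, had signals of 823 and 355 at day 3 and 836 and 294 at day 6, 2.84-fold lower. E2f7 and E2f8, repressors that peak in dividing cells, were 2.43-fold and 2.51-fold lower, and E2f1 was 2.02-fold lower with a second probe set at -0.03.

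Several pathways outside these classes were followed through lists of known members. The amino acid and ATF4 response, by which cells short of amino acids or loaded with unfolded protein make and import amino acids, had 13 of 25 measured genes higher and 0 lower, with a median of 1.07 at day 6 and -0.21 at day 3. Trib3, a pseudokinase, had signals of 839.9 and 519.6 at day 3 and 414 and 4609 at day 6, 11.1-fold higher, with a second probe set at 2.48. Chac1, which degrades glutathione, had signals of 935 and 672 at day 3 and 541 and 2194 at day 6, 4.05-fold higher. Nupr1, a stress-induced nuclear protein, had signals of 2549 and 1884 at day 3 and 2745 and 7614 at day 6, 2.77-fold higher. Asns, asparagine synthetase, had signals of 8505 and 7098 at day 3 and 4782 and 11236 at day 6, 2.35-fold higher. All 4 had osteogenic medium below normal medium at day 3 and above it at day 6. Mitochondrial one-carbon enzymes were also higher, with Aldh1l2 at 2.69-fold, Shmt2 at 2.23-fold and Mthfd2 at 2.10-fold. Psph, the last enzyme of serine synthesis, was 2.25-fold higher, and Ppp1r15a, which lets translation restart after stress, 2.32-fold. Of 16 tRNA synthetases 2 were higher, Sars (2.35-fold) and Wars (2.13-fold), with a median of 0.47, and Wars had 3 other probe sets from 0.55 to 1.45.

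Endoplasmic reticulum folding genes, the chaperones and sensors of the unfolded protein response, had 9 of 23 measured genes higher and 0 lower, with all 23 above zero and a median of 0.85, against -0.06 at day 3. Creld2, a secreted stress protein, had signals of 857 and 1415 at day 3 and 949.5 and 4323 at day 6, 4.55-fold higher. Sdf2l1, a chaperone cofactor, had signals of 942 and 916 at day 3 and 1173 and 4340.2 at day 6, 3.70-fold higher. Hspa5, BiP, the main chaperone of the compartment, had signals of 17554 and 17298 at day 3 and 19524 and 43091 at day 6, 2.21-fold higher (other probe sets at 0.39 and 1.22). Herpud1 (3.03-fold), Pdia4 (2.58-fold), Hyou1 (2.18-fold) and the sensor Atf6 (2.01-fold) were higher as well, and Calr and Canx, lectin chaperones, were at 0.41 and 0.24. For Sdf2l1 and Hspa5 the normal arrays and the osteogenic day 3 array lay together and the osteogenic day 6 array apart.

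Both lists were searched for the motifs of the factors that serve these pathways, in the same RefSeq promoters. The C/EBP-ATF response element TGATGNAA, on both strands, was in the promoters of 7 of 21 measured genes of the ATF4 list with a promoter (33.3%), against 4.51% of all 27025 genes. The endoplasmic reticulum stress response element, CCAAT and CCACG with 9 bases between them, was in 8 of 19 folding genes (42.1%), against 0.137% of all genes. The lists hold genes long known as targets of these elements, so the share describes the lists and is no evidence from the arrays. Genes with a match were not all past 2-fold. In the ATF4 list Trib3, Chac1, Nupr1 and Asns were, while Slc7a11 (at least 0.36), Slc1a4 (0.45) and Vldlr (0.99) were not. In the folding list Creld2 and Hspa5 were, while Hsp90b1 (0.85), Pdia6 (0.62), Syvn1 (0.54), Dnajc3 (0.50), Calr and Canx were not. The promoters of 5 of the genes with a match that were past 2-fold are shown, with the matched motif in capitals. Chac1 is at chr2:119350992-119351291 on the plus strand, Nupr1 at chr7:126625421-126625720 on the minus strand, Trib3 at chr2:152344011-152344310 on the minus strand, Creld2 at chr15:88819396-88819695 on the plus strand and Hspa5 at chr2:34771840-34772139 on the plus strand. In Trib3 the match starts 14 bases after the start site, and in the others it lies before it.
Trib3: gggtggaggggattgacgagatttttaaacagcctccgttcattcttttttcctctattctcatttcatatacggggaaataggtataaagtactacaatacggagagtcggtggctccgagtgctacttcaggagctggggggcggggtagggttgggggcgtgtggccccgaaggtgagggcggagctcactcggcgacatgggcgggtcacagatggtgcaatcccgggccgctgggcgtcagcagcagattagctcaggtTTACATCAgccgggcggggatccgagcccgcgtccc
Chac1: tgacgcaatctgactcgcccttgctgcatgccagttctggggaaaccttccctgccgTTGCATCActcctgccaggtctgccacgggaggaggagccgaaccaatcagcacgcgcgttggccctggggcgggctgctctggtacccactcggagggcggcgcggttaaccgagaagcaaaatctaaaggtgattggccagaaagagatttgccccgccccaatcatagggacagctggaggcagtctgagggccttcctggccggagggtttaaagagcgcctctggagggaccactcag
Nupr1: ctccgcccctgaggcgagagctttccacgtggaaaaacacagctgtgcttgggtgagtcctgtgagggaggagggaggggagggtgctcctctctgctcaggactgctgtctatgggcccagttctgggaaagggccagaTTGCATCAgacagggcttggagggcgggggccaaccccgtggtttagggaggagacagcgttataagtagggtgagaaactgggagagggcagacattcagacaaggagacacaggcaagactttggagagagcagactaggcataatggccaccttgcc
Creld2: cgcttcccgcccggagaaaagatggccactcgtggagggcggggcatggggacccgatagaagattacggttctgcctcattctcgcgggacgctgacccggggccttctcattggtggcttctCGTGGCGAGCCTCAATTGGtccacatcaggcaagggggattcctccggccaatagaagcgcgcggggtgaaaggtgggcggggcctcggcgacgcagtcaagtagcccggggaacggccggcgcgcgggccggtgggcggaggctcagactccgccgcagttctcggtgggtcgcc
Hspa5: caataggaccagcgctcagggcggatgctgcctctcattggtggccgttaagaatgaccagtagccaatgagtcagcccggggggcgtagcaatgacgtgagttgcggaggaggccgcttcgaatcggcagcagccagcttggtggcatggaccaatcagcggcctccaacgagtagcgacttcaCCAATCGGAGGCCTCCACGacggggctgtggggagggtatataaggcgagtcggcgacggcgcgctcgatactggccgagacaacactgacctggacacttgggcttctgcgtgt

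Cell cycle genes had 12 of 40 measured genes lower and 0 higher, with 39 below zero and a median of -0.91 at day 6, against 0.30 at day 3. Cdc6, which licenses replication origins, had signals of 479 and 616 at day 3 and 356 and 113 at day 6, 3.15-fold lower. Rrm2, a subunit of ribonucleotide reductase, had signals of 2894 and 3299 at day 3 and 2247 and 735 at day 6, 3.06-fold lower, and its other probe sets gave -1.33 and -1.21. Mki67, the Ki-67 proliferation antigen, had signals of 3255 and 2555 at day 3 and 2005 and 769 at day 6, 2.61-fold lower. On each of these the osteogenic day 6 array was the lowest of the 4. Uhrf1, which maintains DNA methylation at replication, had signals of 2280.3 and 2721 at day 3 and 1495 and 613 at day 6, 2.44-fold lower. Kif11, a spindle motor, and Aurkb, a mitotic kinase, were 2.38-fold and 2.33-fold lower. Kif11 had other probe sets at -1.11 and -0.33 and a mean over probe sets of -0.90. Top2a, a topoisomerase of dividing cells, was 2.14-fold lower with a second probe set at -0.31, and Cdc45 was 2.03-fold lower with a near-floor second probe set at 0.72 (a bound). The E2F motif TTTCCCGC was in 3 of 32 list promoters (9.38%, against 1.24% of all genes) and its other form TTTGGCGC in 4 (12.5%, against 0.585%). These shares describe the list and are no evidence from the arrays. Of the genes with a match, Cdc6, Mcm5 and Pola1 were lower, while Mcm3 (-0.94), Mcm6 (-0.96) and Mcm7 (-0.63) were under 2-fold. The promoter of Cdc6, at chr11:98907901-98908200 on the plus strand, is shown because this gene was the lowest of the list, with the motif TTTCCCGC or its reverse complement in capitals.
Cdc6: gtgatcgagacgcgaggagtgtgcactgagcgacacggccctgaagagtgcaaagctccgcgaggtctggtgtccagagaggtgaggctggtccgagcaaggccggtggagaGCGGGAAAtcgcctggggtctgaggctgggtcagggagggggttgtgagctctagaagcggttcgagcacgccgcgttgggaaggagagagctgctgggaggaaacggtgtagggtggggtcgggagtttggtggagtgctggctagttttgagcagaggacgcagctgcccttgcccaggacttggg

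Hypoxia and glycolysis genes had 5 of 25 measured genes higher and 0 lower, with a median of 0.47 at day 6 and -0.12 at day 3. Besides Vegfa, Slc2a1 and Slc2a3, these were Eno2, a glycolytic enolase (2.80-fold), and Car9, a carbonic anhydrase (at least 2.84-fold). In a list of genes that ERK signalling induces, its feedback inhibitors among them, 5 of 15 were higher and 0 lower, with a median of 0.51. The higher genes included Fosl1 and Etv4, which are transcription factors. Dusp6, a phosphatase of ERK, had signals of 1132 and 2511 at day 3 and 1371 and 5995 at day 6, 4.37-fold higher. Dusp4 had signals of 94.3 and 106 at day 3 and 89.1 and 348 at day 6, 3.91-fold higher, and Spry1, a feedback inhibitor of growth factor receptors, had 784 and 809 at day 3 and 1262 and 2962 at day 6, 2.35-fold higher.

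**Figure D5:**
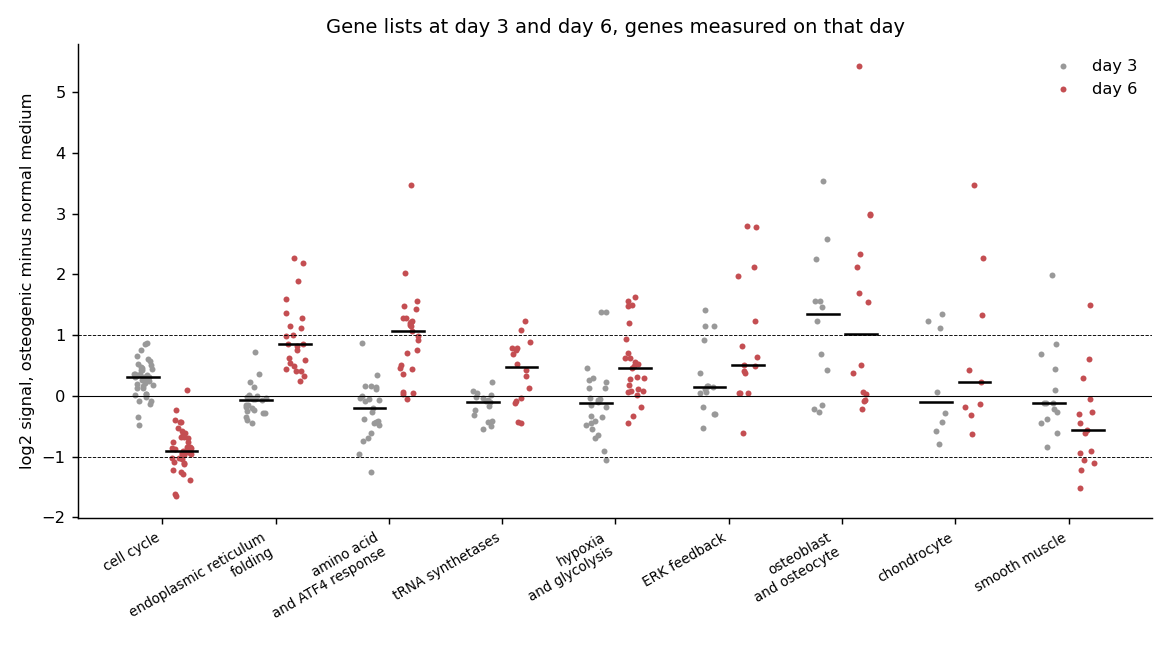
Points give the log2 difference of each gene of 9 lists between osteogenic and normal medium at day 3 (grey) and day 6 (red), bars the medians. Cell cycle genes have medians of 0.30 and -0.91, folding genes -0.06 and 0.85 and ATF4 genes -0.21 and 1.07 at day 3 and day 6.

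Genes that mark other cell types were mixed. Of 18 chondrocyte genes on the array 9 were measured and 3 were higher, Col11a2, Col2a1 and Cnmd, a cartilage glycoprotein (2.51-fold, signals of 795 and 2035 at day 3 and 776 and 1945 at day 6). The summed signal of all 9 measured genes was 6028 and 5690 in normal and 7774 and 10624 in osteogenic medium at days 3 and 6. Acan, Matn1 and Col10a1, genes that define cartilage, were not among the measured genes, and Sox6 was at -0.63. Smooth muscle genes had 1 higher and 4 lower of 15 measured and a median of -0.57, with summed signals of 149024 in normal and 115059 in osteogenic medium at day 6. Lmod1, leiomodin, had signals of 987 and 553 at day 3 and 588 and 206 at day 6, 2.86-fold lower. Tpm1, a tropomyosin, had 24125 and 19953 at day 3 and 22256 and 10647 at day 6, 2.09-fold lower (other probe sets at -2.07 and -1.09). Des, desmin, was at least 2.84-fold higher and stands in the skeletal muscle list as well, of whose 20 genes 6 were measured, with 1 higher and 1 lower, the troponin gene Tnnt1 (at least 4.06-fold lower). Of 13 adipocyte genes 5 were measured, with 1 higher and 0 lower. Of 12 leukocyte genes 5 were measured, with 1 higher, Fcer1g, a receptor chain (2.35-fold), and 1 lower, Lyz2, a lysozyme (2.36-fold). Of 15 endothelial genes 6 were measured, with 0 higher and 0 lower. In normal and osteogenic medium at day 6 the summed signals were 1296 and 1173 for the adipocyte genes, 1198 and 1016 for the leukocyte genes, 658 and 584 for the skeletal muscle genes and 931 and 1134 for the endothelial genes. Their part in the other differences was not tested. The osteoblast and osteocyte markers had 7 of 14 measured genes higher and 0 lower, with a median of 1.02. The other 7 were within 2-fold, and 3 of the 14 were below zero, the lowest at -0.22. Of bone genes with values above, Col1a1, Col1a2, Sp7 and Dlx5 were within 2-fold. Values of Runx2, Spp1 and Bglap2 are not given here. Sost was not among the measured genes.

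The genes with the largest differences also included some outside all of these groups. Avil, advillin, an actin-binding protein, had signals of 105 and 169 at day 3 and below the floor and 1520.1 at day 6, at least 26.3-fold higher. Prkg2, cyclic GMP-dependent protein kinase II, which acts downstream of natriuretic peptides in the skeleton, had signals of 613 and 2082 at day 3 and 398 and 7968 at day 6, a log2 difference of 4.32, with other probe sets at 1.71 and 3.73. Its relative Prkg1 was at -0.17. Klhl30, a kelch-like protein, was 14.1-fold higher, Mlip, which binds lamins in muscle, at least 11.6-fold, Wdr95 at least 9.42-fold and Tmem151a 8.75-fold. At the other end, Txnip, which restrains glucose uptake, had signals of 2591 and 1841 at day 3 and 3328 and 146 at day 6, 22.8-fold lower, with a second probe set at -4.66 (a bound). The other 3 arrays lay between 1841 and 3328. Aldh3a1, an aldehyde dehydrogenase, had signals of 1192 and 318 at day 3 and 1578 and 230.2 at day 6, 6.86-fold lower, and Aoc3, a copper amine oxidase, had 1156 and 905 at day 3 and 1404 and 278 at day 6, 5.06-fold lower. Tspan13, a tetraspanin, was 5.55-fold lower (other probe set at -1.18), Astn1, an adhesion protein, at least 5.51-fold, and Caprin2, an RNA-binding protein, 4.83-fold. Lyz1, lysozyme, was 4.47-fold lower but its other probe sets gave -0.36 and -0.21 (a bound). Samd5 was at least 4.45-fold lower with a second probe set at -0.43 (a bound).

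Set beside day 3, which used other arrays, most of the higher genes of day 6 had the same sign at under 2-fold. Of 457 higher genes measured on both days, 90 were also higher at day 3, 256 had the same sign at under 2-fold and 111 were at zero or of opposite sign, with a median day 3 difference of 0.45. Of 324 lower genes the counts were 50, 207 and 67, with a median of -0.49. Among higher genes of the 5 classes, both osteogenic arrays were above both normal arrays for 24 of 29 matrix genes, 20 of 28 receptors, 22 of 31 channels and transporters, 25 of 43 secreted factors and 19 of 27 transcription factors. On the lower side, both osteogenic arrays were below both normal arrays for 22 of 27, 14 of 14, 10 of 11, 11 of 11 and 9 of 11. In the folding and ATF4 lists this held for 2 of 9 and 3 of 13 higher genes, and in the cell cycle list for 0 of 12 lower genes. Part of this order is fixed, because the genes were chosen for their difference at day 6. Shares over all measured genes were not computed, either for this order or for a 2-fold difference at day 3.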

How the data were processed

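Per the labels' protocols, RNA of MC3T3-E1 cells, 1 sample per medium and day, was amplified and biotin-labelled by transcription from the 3′ end and measured on Affymetrix Mouse Genome 430 2.0 arrays. The authors deposited 1 linear intensity per probe set. On the osteogenic day 6 array these averaged 500 after the top and bottom 2% of probe sets were dropped. That average was computed for this array only. With arrays scaled to a common level, total RNA per cell is not kept. Which software summarised the probes is not given in the sources used here.

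Python 3.11.15 with pandas 2.3.3 was used. Intensities were shifted to a common 75th percentile (factors 0.988 to 1.02), floored at the pooled 50th percentile (57.8) and taken to log2. Of 45101 probe sets, 34945 had 1 gene symbol in the platform annotation, 932 had several and 9160 none, and 64 were controls. A gene was its probe set with the highest mean log2 signal, measured if above the floor on at least 1 day 6 array. No test was possible with 1 array a group. Scripts were tested on simulated data.

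Families were matched by symbol pattern, so a few members carry a name and not the function. The families, lists and questions were chosen with earlier results of these data known. Named were the 12 highest and 12 lowest genes without a probe set of opposite sign, and family or list members past 2-fold. Values were given for the 6 largest. Further values, and those of other members within 2-fold, were chosen after they were seen. Bright members within 2-fold were also named, with Panx3, Ramp1, Prkg2, Txnip and part of a fixed set of bone genes. Promoters were RefSeq sequences of GRCm38.p6. Alternatives to the scaling, the floor, the filter and the choice of probe set are given at the end.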

Additional observations from a re-analysis of the deposited data

Results flagged for a closer look

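For 8 genes the difference between media was past 2-fold in opposite directions at day 3 and day 6, with 1 array per group, so that the change between days was not tested. Lower at day 6 were Aldh1a7 (-1.31, 1.36 at day 3), Otor (-1.25, 1.32), Kcnk4 (-1.11, 1.04) and Eme1 (-1.09, 1.02). Higher at day 6 were Ptprn (1.13, -1.02), Inpp5j (1.46, -1.02), Susd5 (1.51, -1.09) and Fahd2a (3.81, -1.29), all in log2. The values of Eme1, Ptprn and Susd5 at day 6, and of Ptprn, Susd5 and Fahd2a at day 3, are bounds. For Fahd2a the other probe sets gave -0.14 and 0.45 at day 6, and for Susd5 the other one gave 0.14 (a bound). Otor, otoraplin, a small secreted protein of cartilage and cochlea, had signals of 511 and 1275 at day 3 and 469.9 and 198 at day 6, and Aldh1a7, an aldehyde dehydrogenase, had 334 and 856 at day 3 and 359 and 145 at day 6. On both, the osteogenic array was the highest of the 4 at day 3 and the lowest at day 6.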

How the results depend on the processing

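With 1 array a side no replicate could be left out, and no paired analysis was possible because there is 1 array per group. The scaling changed little: without it 489 genes were higher and 333 lower, with quantile normalization 476 and 339, and with a common median, which moved the median of all genes to -0.04, 458 and 376 (54.9% of those past 2-fold higher, against 59.7%). The treatment of low signals changed more. With the floor at the 40th percentile 675 genes were higher and 473 lower, among them 18 lower channels and transporters, 22 lower secreted factors and 17 lower transcription factors. At the 60th it was 351 and 236, with 18 higher receptors. With a pseudocount of 50 in place of the floor it was 458 and 289, and with signals above the floor on both arrays 389 and 277. With neither floor nor filter 2525 genes were higher and 2195 lower, with 124 and 107 receptors, 135 and 112 channels and transporters, 138 and 93 secreted factors, 101 and 66 transcription factors and 62 and 49 matrix genes, so counts near the floor depend on where it is set. Averaging a gene's probe sets gave 439 and 273, with 9 lower receptors, and leaving out probe sets that may match several genes gave 469 and 327. Of the 261 genes past 2-fold named with values, 0 changed sign under any of the 10 alternatives that gave them a value, and those still past 2-fold ranged from 223 with the higher floor to 261 without further scaling. The stricter filter kept 224, all past 2-fold, because it changes no value. Most alternatives could hardly change a sign either. They alter the floor, the filter or the scale, and these genes were chosen for a 2-fold difference. Only the 2 alternatives that alter the choice of probe set put the sign to a check.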

Other observations

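Probe sets with no gene symbol or several symbols were left out of all counts above. Of these, 2777 were measured at day 6, with 81 higher and 60 lower by 2-fold or more in osteogenic medium (5.08% past 2-fold).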
